A study of Mus musculus with 16 samples.

Results

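A set of 41 macrophage and myeloid identity genes was followed across 16 expression arrays of mouse melanocytes and of 2 mouse models of melanoma. The set was a list of gene symbols, not defined by a threshold on the array values, but chosen with earlier results of these data known. It held surface proteins of leukocytes, Fc receptors and their adaptors, scavenger and lectin receptors, lysozymes and the phagocyte oxidase. Of the 41 genes, 40 had at least 1 probe set assigned to that symbol alone, out of 12393 genes so named on the array. Lyn had none and was not analysed here. Each gene was read from the probe set with the highest mean, and 11 of the genes had several. All values are on a log2 scale after quantile normalization, so that a difference of 1 is a 2-fold difference in signal. Levels of different genes cannot be set against each other, since probe sets differ in how strongly they bind.

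Per the labels, 6 arrays came from iMet tumours (genotype Tyr-rtTA;Tet-Met;Ink4a/Arf-/-) and 6 from iHRAS* tumours, called iRas in the sample titles (Tyr-rtTA;Tet-HRASV12G;Ink4a/Arf-/-). In both models the tyrosinase promoter drives a tetracycline-controlled activator, which switches on Met, a receptor tyrosine kinase, in one and an activated HRAS in the other, and both lack the Ink4a/Arf tumour suppressor locus. The third group was 4 arrays of mouse melanocytes with no disease, whose genotype the labels do not give. The dose and duration of induction and the animals' ages are likewise not given in the sources used here. The study compared the tumour models as melanomas able or not able to metastasise. The labels do not say that arrays of 1 group came from separate animals, so p-values measure the spread between these samples.

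Macrophages and their relatives arise from myeloid precursors under the transcription factor PU.1, the product of Spi1, and need signals through the CSF1 receptor. They take up particles through Fc receptors, integrins, scavenger receptors and lectins. Several of these receptors signal through the small adaptors encoded by Tyrobp and Fcer1g, and the phagocyte oxidase then releases reactive oxygen onto what was taken up. In tumours, macrophages are a common non-malignant cell type.

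The promoters of 6 genes are shown as examples picked by hand. Itgam and Mrc1 did not share the drop seen on a pair of iHRAS* arrays, whereas Laptm5 and Plek were among the 31 genes that did. Each window runs from 250 bases before to 50 bases after the annotated start and is taken from RefSeq on GRCm38.p6. Capitals in these 4 mark GAGGAA on either strand (TTCCTC on the reverse strand), a core motif bound by PU.1. The windows are chr7:128062390-128062689 on the + strand for Itgam, chr2:14229164-14229463 on the + strand for Mrc1, chr4:130913066-130913365 on the + strand for Laptm5 and chr11:17008669-17008968 on the - strand for Plek.
Itgam: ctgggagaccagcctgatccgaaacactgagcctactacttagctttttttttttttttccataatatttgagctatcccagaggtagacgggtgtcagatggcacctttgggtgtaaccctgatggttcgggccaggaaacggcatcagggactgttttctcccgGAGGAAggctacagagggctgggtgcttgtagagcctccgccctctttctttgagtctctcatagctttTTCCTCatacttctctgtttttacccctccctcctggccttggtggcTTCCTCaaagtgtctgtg
Mrc1: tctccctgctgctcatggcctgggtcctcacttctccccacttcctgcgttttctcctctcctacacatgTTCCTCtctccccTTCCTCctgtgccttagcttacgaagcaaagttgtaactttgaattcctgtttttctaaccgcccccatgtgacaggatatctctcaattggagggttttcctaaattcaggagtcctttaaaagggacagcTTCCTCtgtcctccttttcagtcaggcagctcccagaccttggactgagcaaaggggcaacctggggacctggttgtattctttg
Laptm5: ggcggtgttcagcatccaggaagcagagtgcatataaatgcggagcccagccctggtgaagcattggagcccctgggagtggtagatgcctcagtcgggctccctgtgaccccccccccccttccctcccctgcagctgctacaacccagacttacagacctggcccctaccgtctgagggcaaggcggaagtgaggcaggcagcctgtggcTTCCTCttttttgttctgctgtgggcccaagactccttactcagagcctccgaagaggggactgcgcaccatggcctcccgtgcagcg
Plek: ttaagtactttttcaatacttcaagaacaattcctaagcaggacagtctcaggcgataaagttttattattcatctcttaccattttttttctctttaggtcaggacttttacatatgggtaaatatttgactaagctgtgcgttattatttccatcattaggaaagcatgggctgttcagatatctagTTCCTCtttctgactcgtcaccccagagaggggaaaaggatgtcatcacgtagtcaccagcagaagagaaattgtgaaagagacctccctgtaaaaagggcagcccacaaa

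The motif occurred 3 times in the Itgam window, beginning 84 and 15 bases before the start and 32 bases after it. Mrc1 also had 3 matches, beginning 180, 167 and 35 bases before the start. Laptm5 had 1 match 38 bases before the start and Plek had 1 match 61 bases before it. RefSeq promoters were found for 30 of the genes, as 37 windows, and 19 of these windows (51.4%) held the motif. Of all 32851 windows of the same length, 28.3% held it. A match describes the letters only. The motif was therefore present in genes that did and in genes that did not share the drop.

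Lyz1 and Lyz2 encode near-identical lysozymes, enzymes that digest bacterial cell walls, and are neighbours on chromosome 10 (windows chr10:117292819-117293118 and chr10:117282223-117282522, both on the - strand). Neither window held the motif. Aligned without gaps, the windows were identical at 201 of 300 bases (67.0%). The capitals mark their longest shared run, 86 bases that begin 50 bases before the start.
Lyz1: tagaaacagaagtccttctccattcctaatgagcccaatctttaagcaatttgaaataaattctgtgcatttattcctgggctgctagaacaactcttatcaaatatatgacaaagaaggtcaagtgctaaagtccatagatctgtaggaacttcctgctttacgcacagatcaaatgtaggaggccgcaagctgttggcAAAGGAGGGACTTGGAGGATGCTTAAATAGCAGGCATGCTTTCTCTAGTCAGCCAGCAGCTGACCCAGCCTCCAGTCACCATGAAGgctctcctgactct
Lyz2: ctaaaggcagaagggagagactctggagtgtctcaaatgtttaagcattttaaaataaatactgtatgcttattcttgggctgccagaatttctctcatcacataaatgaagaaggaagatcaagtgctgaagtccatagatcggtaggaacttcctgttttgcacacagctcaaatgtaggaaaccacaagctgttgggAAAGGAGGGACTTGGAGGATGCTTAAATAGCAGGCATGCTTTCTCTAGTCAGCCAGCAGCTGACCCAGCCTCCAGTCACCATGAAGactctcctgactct

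The tumour arrays carried the myeloid genes at high signal and the melanocyte arrays mostly did not. The mean over the 40 genes was 4.36 to 4.47 on the 4 melanocyte arrays, 9.08 to 9.76 on the 6 iMet arrays and 7.66 to 9.69 on the 6 iHRAS* arrays. Of the 40 genes, 30 lay below 6.21 on all 4 melanocyte arrays. That value was the 40th percentile of all signals and served as the cut-off for dim signal. In such bulk samples, fewer cells of a type and less RNA per cell cannot be told apart. The labels speak of isolated melanoma cells and the design text of RNA from melanomas. Ptprc, the pan-leukocyte phosphatase CD45, read 8.18 to 11.39 on the 12 tumour arrays and 4.44 to 4.90 on the melanocyte arrays.

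The check of the labelled cell type gave a mixed picture. Of 8 melanocyte markers, Mitf and the pigment enzyme genes Tyr, Tyrp1 and Dct stayed below the cut-off on all 4 melanocyte arrays, with Tyr at 0.55 to 5.38. The other 4, Sox10 (9.04 to 10.41), Slc45a2 (6.89 to 7.22), Pmel (6.43 to 7.05) and Pax3 (6.42 to 6.72), lay above it on all 4. Keratinocyte markers were divided on the same arrays. Krt5 read 11.05 to 13.69 and Krt14, Krt10, Perp, Dsp, Trp63 and Sfn were also above the cut-off, whereas Epcam (1.37 to 1.88), Cdh1 and Krt1 were dim. Krt15 read 2.38 and 2.57 on melanocyte arrays 1 and 3 and 10.74 and 11.13 on arrays 2 and 4. The deposited arrays had medians of 6.56 to 7.28 before normalization, with the lowest on iHRAS* array 3. Gapdh 3′ minus 5′ signal, a sign of RNA quality, was 0.34 on iHRAS* array 4 and between -0.42 and 0.06 on the others. The same measure for beta-actin set that array further apart, at 1.12 beside -0.04 to 0.30. Array 4 was the highest iHRAS* array for 21 of the 40 genes, beside 20.1% of tested genes. In the iMet group, array 4 was the highest for 22 of the 40 genes, beside 18.1% of tested genes. Its 3′ minus 5′ signal was -0.26 for Gapdh and 0.11 for beta-actin. A link to RNA quality was not tested.

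**Figure D1:**
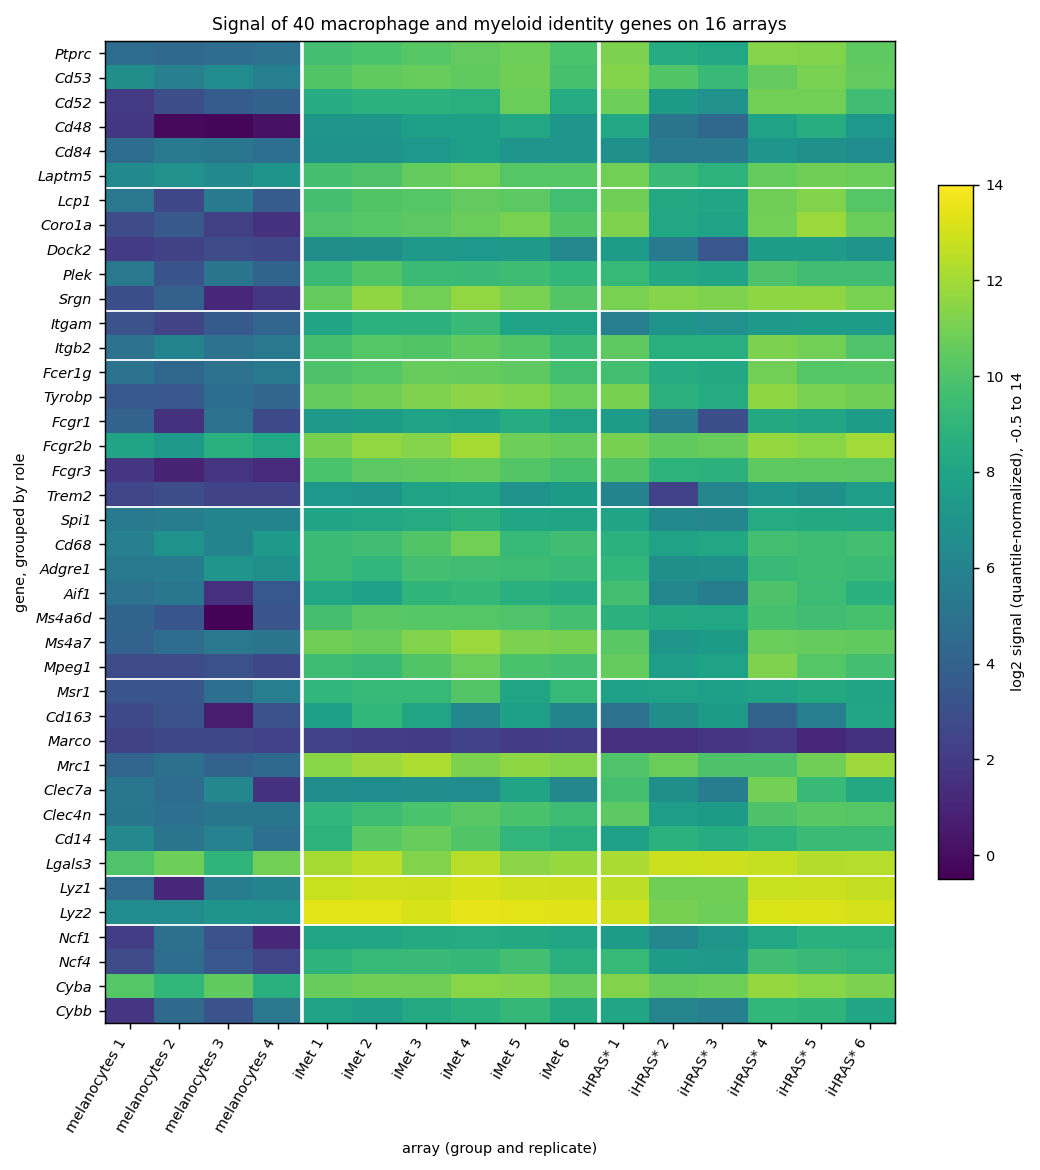
Heat map of quantile-normalized log2 signal for the 40 genes (rows, grouped by role) on the 16 arrays (columns). Most rows are dark on the 4 melanocyte arrays and bright on the tumour arrays, with iHRAS* arrays 2 and 3 darker than the other iHRAS* arrays for 31 of the 40 genes.

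Against melanocytes, 38 of the 39 genes above the dim cut-off rose in iMet tumours and all 39 rose in iHRAS* tumours (limma, Benjamini-Hochberg adjusted p under 0.05). None fell in either comparison. Since 30 of the 40 genes were dim on all 4 melanocyte arrays, most passed the filter only through tumour arrays. For these genes the filter favoured a rise in advance, so the counts describe the genes and are not independent support. Without the dim filter, 38 genes were higher in iMet and 39 in iHRAS* tumours. Among all 8651 genes tested, 16.4% were higher in iMet tumours and 18.1% were higher in iHRAS* tumours. The median difference over all 40 genes was 4.93 in iMet and 4.37 in iHRAS* tumours, beside -0.12 and -0.13 over all 12393 genes. Both comparisons share the same 4 melanocyte arrays. Marco, a scavenger receptor of some resident macrophages, was the gene below the cut-off, at 1.17 to 2.64 on every array. The means of endothelial markers (6.99 to 9.17 on tumour arrays, 4.48 to 5.56 on melanocyte arrays), of mast cell markers (4.76 to 9.52 and 3.97 to 4.62), of neutrophil markers (4.65 to 9.87 and 3.80 to 4.47), of dendritic and Langerhans cell markers (5.50 to 8.68 and 4.17 to 4.86) and of fibroblast markers (11.13 to 12.32 and 7.87 to 11.06) also stood higher on every tumour array, and their part in these differences was not tested.

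Fcgr3, an activating Fc receptor, was dim on every melanocyte array. Its melanocyte signal was 1.79, 0.94, 1.71 and 1.31, and its tumour signal ran from 8.79 to 10.60. The difference was 8.76 ± 0.34 (SE, adjusted p = 1.18e-10, limma) in iMet and 8.37 ± 0.34 (adjusted p = 4.30e-10) in iHRAS* tumours. Srgn, the proteoglycan of secretory granules, differed by 8.52 in iMet and 8.85 in iHRAS* tumours. Tyrobp differed by 7.03 and 6.31, and Coro1a, a leukocyte actin regulator, by 7.84 and 7.54. Since dim melanocyte values give only a bound, they were also set to the cut-off. Fcgr3 then differed by at least 3.99 and 3.60, Srgn by at least 4.78 and 5.11, and Tyrobp by at least 4.81 and 4.09. Other genes kept little of their rise in iHRAS* tumours: -0.20 for Trem2, -0.05 for Cd163, 0.15 for Cd84, 0.20 for Dock2 and 0.43 for Fcgr1. In iMet tumours the same genes kept 0.72 to 1.61. Trem2 and Cd163 averaged 6.01 and 6.16 in iHRAS* tumours, below the cut-off themselves.

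A few of the genes were already bright in melanocytes. Lgals3, which encodes the sugar-binding protein galectin-3, read 9.98, 10.79, 8.97 and 10.89 on the melanocyte arrays and rose by 1.77 ± 0.35 (SE) in iMet and 2.39 ± 0.35 in iHRAS* tumours (limma, adjusted p = 0.00122 and 0.000112). Cyba, the membrane subunit shared by several NADPH oxidases, read 10.18, 9.12, 10.44 and 8.58 and rose by 1.36 ± 0.32 and 1.58 ± 0.32. Its call in iMet tumours was lost without melanocyte arrays 2 and 4, where the difference was 0.63. Fcgr2b, the inhibitory Fc receptor, read 7.36 to 8.72 in melanocytes on the probe set used here. Its 3 other probe sets averaged 3.41 to 4.27 there, so this melanocyte level depends on the probe set. Clec7a, the fungal receptor dectin-1, was the gene not called in iMet tumours, with a difference of 2.34 ± 0.97 (adjusted p = 0.0728). It rose by 4.00 ± 0.97 in iHRAS* tumours (adjusted p = 0.00457). Without melanocyte array 3, Clec7a was called in iMet tumours too, at 2.94. The Fcgr1 and Clec7a calls in iHRAS* tumours were lost without melanocyte arrays 2 and 4.

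Between the tumour models, 4 of the 39 tested genes were higher in iMet and 0 were lower (limma, adjusted p under 0.05 over 8058 genes). Itgam, Msr1, Mrc1 and Ms4a6d rose by 0.96 to 1.47, and the other 35 were not called. Of all tested genes, 11.2% were higher and 9.7% were lower in iMet tumours, so the 4 called genes do not exceed the background share. The median difference over the 40 genes was 0.55, with 34 positive, beside 0.02 and 51.4% positive over all genes. Leaving out iHRAS* arrays 2 and 3, an alternative added after seeing the data, turned the median to -0.11, with 15 of 40 positive. In that fit 2 genes were higher (background 11.5%) and 3 were lower (background 10.9%) in iMet tumours. For 31 of the 40 genes that pair was the lowest, so leaving it out favoured lower differences in advance. With the deposited scaling, the median of all genes was itself 0.18 and that of the 40 genes was 0.70.

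**Figure D2:**
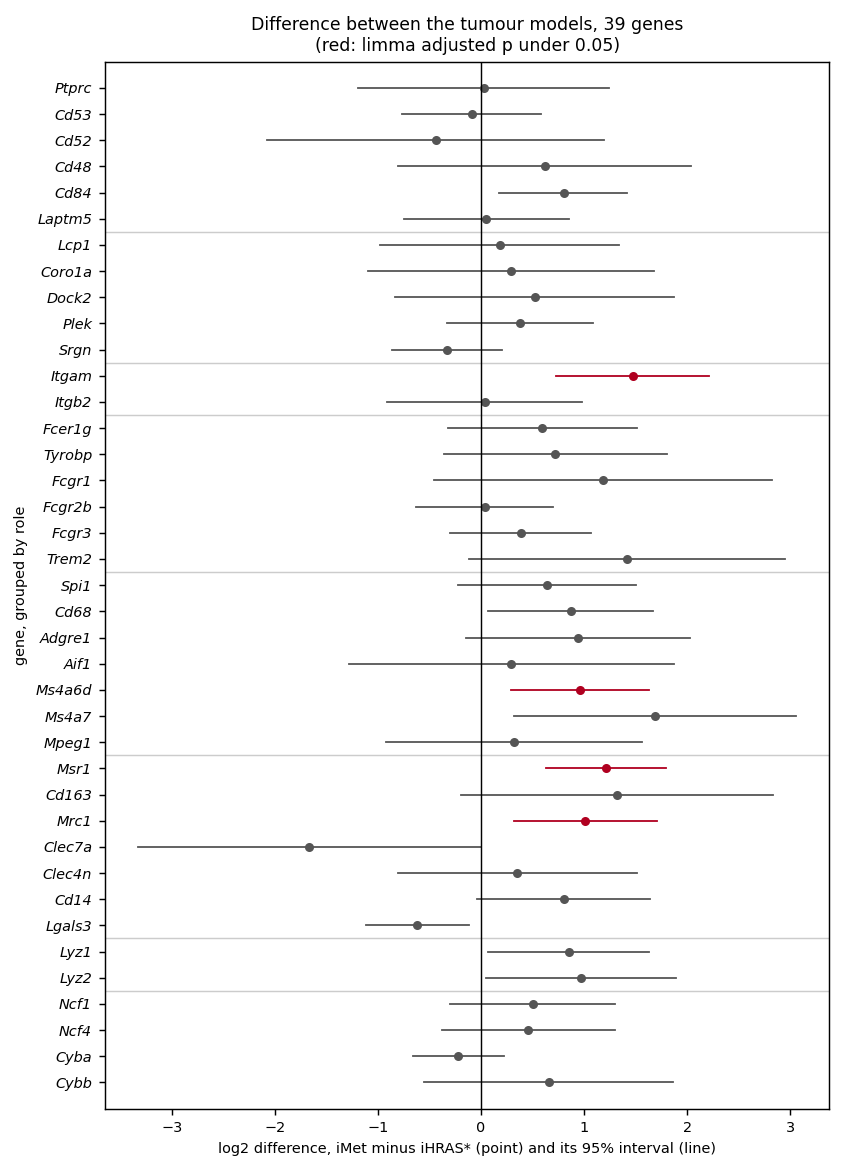
Log2 difference between iMet and iHRAS* tumours (horizontal axis) for the 39 tested genes, grouped by role, with points at the fitted difference and lines for its 95% interval. The 4 red points, between 0.96 and 1.47, are the genes called at adjusted p under 0.05, and many of the other intervals span 0.

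Itgam encodes the alpha M chain of the integrin CD11b/CD18, a receptor for complement-coated particles on macrophages, monocytes and neutrophils. Its signal was 7.94, 8.78, 8.82, 9.30, 7.93 and 7.83 on iMet arrays 1 to 6 and 5.70, 7.03, 6.82, 7.33, 7.45 and 7.45 on iHRAS* arrays 1 to 6. Every iMet array stood above every iHRAS* array, which held for 5.83% of all tested genes. The fitted difference was 1.47 ± 0.34 (SE, 95% interval 0.73 to 2.21, adjusted p = 0.0096, limma), or 2.77-fold. Itgam kept its call under all 21 alternatives tried. Among the tested genes of the set, only Itgam had such a gap. No tested gene of the set had all its iMet arrays below all its iHRAS* arrays, beside 4.89% of all tested genes. With 39 genes, neither count sets the set apart from these shares. Itgb2, the beta chain that pairs with Itgam, differed by 0.04 ± 0.43 (95% interval -0.91 to 0.98). Neutrophils also carry Itgam, and the mean over 9 neutrophil marker genes was 5.22 to 9.87 in iMet and 4.65 to 6.48 in iHRAS* tumours. Of these 9 markers, 3 passed the dim filter between the tumours and 0 were called. S100a8, S100a9 and Ngp differed by 0.02, 0.30 and 1.94. The part of neutrophils in the Itgam difference was not tested.

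Msr1, the class A scavenger receptor that binds modified lipoproteins, was the other gene called under all 21 alternatives. It read 9.06, 9.21, 9.21, 10.14, 8.03 and 9.24 on the iMet arrays and 7.82, 7.83, 7.71, 7.99, 8.31 and 7.96 on the iHRAS* arrays. Only iMet array 5 fell within the iHRAS* range. The difference was 1.21 ± 0.27 (SE, adjusted p = 0.00759, limma). Other Msr1 probe sets, above the cut-off on 12 and 11 of the arrays, differed by 1.47 and 1.30, and the last was dim on most arrays.

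Mrc1 encodes the mannose receptor CD206, a lectin of tissue macrophages. It read 11.44, 11.89, 12.19, 11.14, 11.51 and 11.29 on the iMet arrays and 10.02, 10.72, 9.94, 9.96, 10.87 and 11.86 on the iHRAS* arrays. The groups overlapped through iHRAS* array 6. The difference of 1.01 ± 0.32 (SE) had an adjusted p of 0.0406 (limma). Its call ended when iMet array 1, 2, 3, 5 or 6, or iHRAS* array 1, 2, 3 or 4, was omitted singly. It also ended without iHRAS* arrays 2 and 3 together (0.90, adjusted p = 0.0993) and without the dim filter (adjusted p = 0.0677).

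Ms4a6d, a 4-span membrane protein of macrophages, ran from 9.69 to 10.28 on the iMet arrays, with a median of 10.09, and read 8.79, 8.23, 8.12, 9.80, 9.58 and 9.79 on the iHRAS* arrays. Those ranges overlapped. The difference of 0.96 ± 0.31 (SE) had an adjusted p of 0.0434 (limma). This call ended when iMet array 1, 2, 3, 4 or 5, or iHRAS* array 1, 2 or 3, was omitted singly, and without iHRAS* arrays 2 and 3 together (0.53, adjusted p = 0.107). With the mean of its 3 probe sets the difference was 0.36 (adjusted p = 0.579). That mean includes a probe set below the cut-off on all arrays, which differed by -0.74. The remaining probe set, above the cut-off on 12 arrays, differed by 0.87. Ms4a6d was also not called without the dim filter (adjusted p = 0.0715) or in a fit of all 16 arrays (adjusted p = 0.267).

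Some uncalled genes had point estimates within or above the range of the called ones. Ms4a7, a relative of Ms4a6d, differed by 1.69 ± 0.63 (SE, 95% interval 0.32 to 3.06, adjusted p = 0.0755). It read 10.63 to 11.84 in iMet tumours and 10.27, 7.20, 7.40, 10.70, 10.58 and 10.48 on the iHRAS* arrays. Trem2, a lipid receptor that signals through Tyrobp, differed by 1.42 ± 0.71 (adjusted p = 0.173), and iHRAS* array 2 read 2.40 against 6.01 to 7.62 on the others. A second Trem2 probe set stayed below the cut-off on all arrays.

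Within the iHRAS* group, the myeloid genes varied far more than within the iMet group. The median SD over the 40 genes was 1.03 among iHRAS* arrays and 0.41 among iMet arrays, beside 0.32 and 0.26 over all tested genes. The SD was larger among iHRAS* arrays for 36 of the 40 genes, which held for 65.1% of tested genes. Arrays 2 and 3 of the iHRAS* group were its 2 lowest for 31 of the 40 genes, which held for 17.7% of tested genes. The mean over the 40 genes was 9.28, 7.82, 7.66, 9.69, 9.66 and 9.44 on iHRAS* arrays 1 to 6. On the iMet arrays it was 9.15, 9.41, 9.57, 9.76, 9.55 and 9.08. Arrays 1, 4, 5 and 6 of the iHRAS* group therefore lay within the iMet range.

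Pan-leukocyte surface proteins showed the drop clearly. Ptprc read 11.12, 8.45, 8.18, 11.39, 11.28 and 10.41 on the iHRAS* arrays and 9.65 to 10.78 on the iMet arrays. Cd52, a small surface glycopeptide of lymphocytes and myeloid cells, read 10.80, 7.40, 6.85, 10.91, 10.90 and 9.56 on the iHRAS* arrays. On the iMet arrays Cd52 lay between 8.40 and 8.76 except for 10.75 on array 5. Cd48, a ligand in leukocyte adhesion, read 5.09 and 4.39 on iHRAS* arrays 2 and 3 and at least 7.23 on the other 4. None of the 6 genes of this role was called between the models, and their median difference was 0.04. Without iHRAS* arrays 2 and 3, Ptprc differed by -0.88 (adjusted p = 0.0339, limma) and Cd52 by -1.58 (adjusted p = 0.0351), lower in iMet tumours. Both genes were lowest on that pair, and the fit was added after seeing the data. Leaving the pair out favoured a negative difference in advance, so these p-values are not support for one. Cd53, Cd84 and Laptm5 differed by -0.09, 0.80 and 0.05 over all arrays. Cd84, a homophilic receptor of the SLAM family, had an adjusted p of 0.0673 and was called under the deposited scaling.

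Leukocyte actin and granule proteins gave 0 calls among 5 genes. Coro1a read 11.18, 8.11, 7.86, 10.94, 11.83 and 10.73 on the iHRAS* arrays and 10.03 to 11.11 on the iMet arrays. Dock2, an activator of the small GTPase Rac in leukocytes, read 7.48, 5.51, 3.46, 7.51, 7.49 and 7.02 on the iHRAS* arrays. Lcp1, the actin-bundling protein L-plastin, and Plek, a substrate of protein kinase C, were likewise lowest on arrays 2 and 3. Srgn did not share the pattern, with 11.10, 11.39, 11.17, 11.55, 11.62 and 11.08 on the iHRAS* arrays and a difference of -0.33 ± 0.24 (SE).

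Fc receptors and their adaptors gave 0 calls among 6 genes, with all 6 differences positive and a median of 0.66. Tyrobp read 11.03, 8.83, 8.50, 11.52, 11.09 and 10.83 on the iHRAS* arrays and 10.55, 10.85, 11.18, 11.50, 11.30 and 10.72 on the iMet arrays. Its difference of 0.72 ± 0.50 (SE) had a 95% interval of -0.36 to 1.80. Fcer1g, the gamma chain shared by Fc receptors, read 9.66, 8.46, 8.27, 10.94, 10.20 and 10.26 on the iHRAS* arrays. Fcgr1, the high-affinity IgG receptor, read 3.00 on iHRAS* array 3 and 5.63 on array 2, beside 7.47 to 8.29 on the other 4. Fcgr2b differed by 0.04 ± 0.31 and Fcgr3 by 0.39 ± 0.32.

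Macrophage identity genes had a median difference of 0.87 over 7 genes, all positive, with Ms4a6d as the single call. Spi1 read 7.99, 6.40, 6.21, 8.44, 8.28 and 8.22 on the iHRAS* arrays and 7.95 to 8.81 on the iMet arrays. Adgre1, the mouse macrophage antigen F4/80, read 9.12, 6.71, 6.79, 9.26, 9.50 and 9.41 on the iHRAS* arrays and 9.05 to 9.69 on the iMet arrays. For both genes the low pair of arrays stood apart and the other 4 lay inside or close to the iMet range. Cd68, a lysosomal glycoprotein, differed by 0.87 ± 0.37 (SE, adjusted p = 0.112). Aif1, an actin-binding protein of macrophages, and Mpeg1, the pore-forming perforin-2, differed by 0.29 and 0.32.

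Among the scavenger, lectin and pattern receptors, the arrays that were high or low differed from gene to gene. Besides Msr1 and Mrc1, 5 tested genes were not called. Cd163, the haemoglobin scavenger receptor, read 7.73, 9.11, 8.04, 6.21, 7.76 and 6.04 on the iMet arrays and 4.99, 6.69, 7.41, 4.14, 5.69 and 8.04 on the iHRAS* arrays. Here iHRAS* array 4 was lowest and arrays 2 and 3 were among the higher ones. The Cd163 difference was 1.32 ± 0.70 (SE, adjusted p = 0.195). Clec7a ran the other way, at 6.29 to 7.95 in iMet tumours and 9.71, 6.71, 5.58, 10.98, 9.29 and 8.26 on the iHRAS* arrays. Its difference was -1.67 ± 0.77 (adjusted p = 0.14), and -2.81 (adjusted p = 0.00342) without iHRAS* arrays 2 and 3. Without iHRAS* array 3 alone it was -2.24 (adjusted p = 0.0268). Clec7a was lowest on these arrays, so both omissions favoured a more negative difference in advance and are not support for one.

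Lgals3 was also lower in iMet by its point estimate, at 11.28 to 12.57 beside 12.18 to 12.89 (-0.62 ± 0.23, adjusted p = 0.074). It passed the threshold without iMet array 2 (-0.75, adjusted p = 0.036) or without iMet array 4 (-0.73, adjusted p = 0.0482). Cd14, the co-receptor for bacterial lipopolysaccharide, read 8.63 to 10.62 in iMet and 7.80 to 9.41 in iHRAS* tumours (0.80 ± 0.39). Clec4n, the mouse dectin-2, differed by 0.35 ± 0.53. In all, 9 of the 40 genes did not have iHRAS* arrays 2 and 3 as the lowest pair: Srgn, Itgam, Trem2, Msr1, Cd163, Marco, Mrc1, Cd14 and Lgals3. The 3 called genes Itgam, Msr1 and Mrc1 are among these 9, whereas the called gene Ms4a6d is not. A low pair widens the iHRAS* spread, which makes a call harder to reach, so this overlap is not a separate result.

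**Figure D3:**
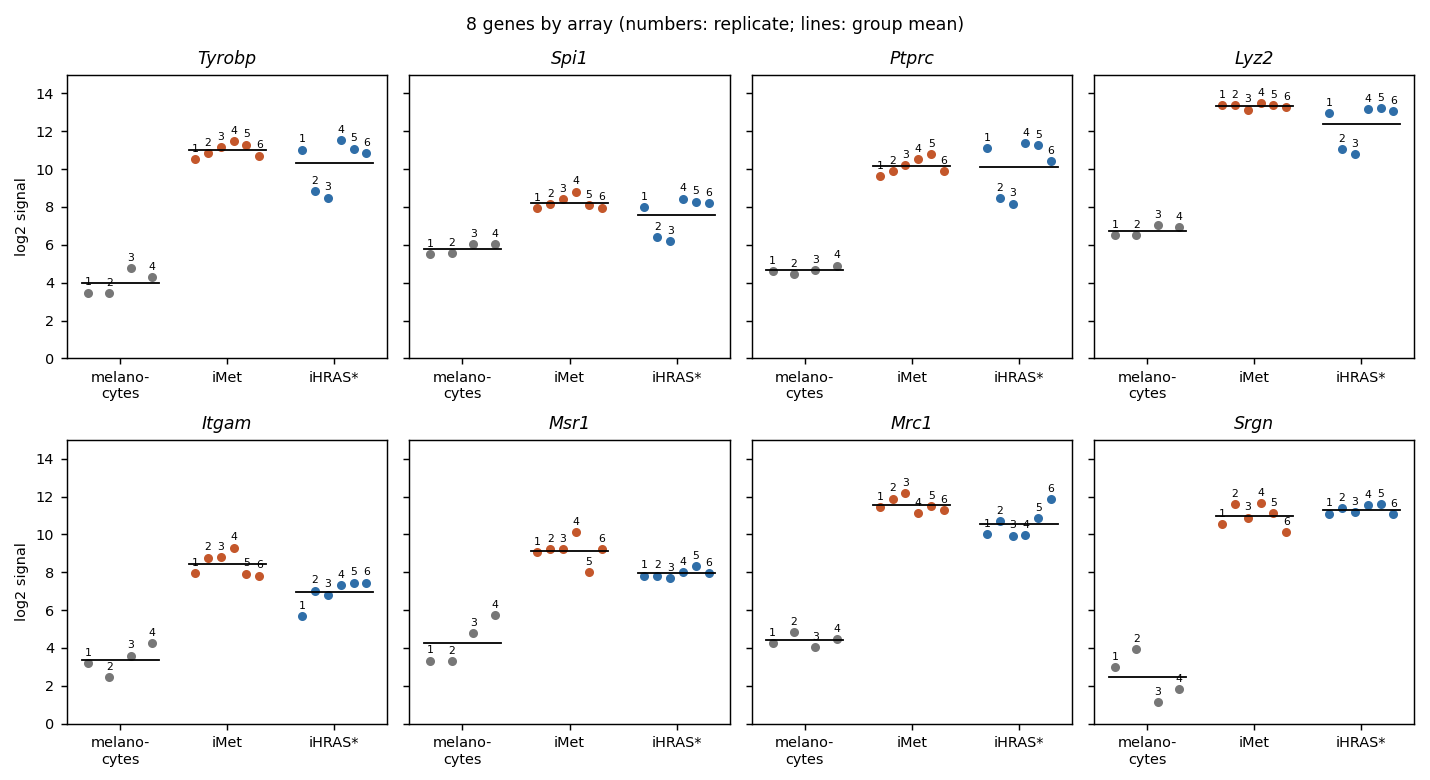
Log2 signal (vertical axis) of 8 genes on each array, with replicate numbers beside the points and lines at group means. In the upper row (Tyrobp, Spi1, Ptprc, Lyz2) iHRAS* arrays 2 and 3 sit below the other iHRAS* arrays. In the lower row (Itgam, Msr1, Mrc1, Srgn) they are not the lowest pair. Array 3 is still the lowest iHRAS* array by a small margin for Msr1 (7.71) and Mrc1 (9.94).

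Both lysozymes were near the top of the signal range in iMet tumours, with Lyz2 at 13.15 to 13.49 and Lyz1 at 12.81 to 13.11. On the iHRAS* arrays Lyz2 read 12.96, 11.05, 10.80, 13.16, 13.24 and 13.07. Lyz1 followed with 12.56, 10.86, 10.87, 12.78, 12.84 and 12.66. Neither was called, at 0.97 ± 0.42 (SE, adjusted p = 0.121) and 0.85 ± 0.36 (adjusted p = 0.112). Another Lyz1 probe set stayed below the cut-off on all arrays, with means of 5.97 and 5.15, and signal from such near-identical transcripts cannot be told apart here, so the Lyz1 values are uncertain.

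The 4 phagocyte oxidase genes were not called between the models. Cybb, the catalytic subunit gp91phox, read 7.58 to 9.16 in iMet tumours and 8.09, 6.11, 5.82, 9.09, 8.91 and 8.04 on the iHRAS* arrays (0.66 ± 0.56, SE). The cytosolic organisers Ncf1 and Ncf4 differed by 0.50 ± 0.37 and 0.46 ± 0.39. Cyba read 10.62 to 11.68 over all 12 tumour arrays and differed by -0.22 ± 0.20. Of 5 other oxidase subunits and regulators tested, Rac1, Rap1a, Nox4 and Hvcn1 among them, 0 were called between the models. Of all tested genes, 11.2% were higher and 9.7% were lower in iMet tumours.

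Markers of other leukocytes were read on the same arrays. The mean over 12 T and NK cell markers was 7.34, 4.70, 3.46, 6.84, 7.42 and 5.38 on iHRAS* arrays 1 to 6 and 3.26 to 4.84 on the iMet arrays. The mean over 10 dendritic and Langerhans cell markers was 8.68, 6.13, 6.38, 8.27, 8.65 and 7.95 on the iHRAS* arrays and 5.50 to 7.64 on the iMet arrays. Both were low on iHRAS* arrays 2 and 3, where most myeloid genes were low. The mast cell mean did not share this order, at 6.77, 6.27, 8.33, 9.31, 8.62 and 9.52. The keratinocyte mean on arrays 2 and 3 was 9.09 and 8.62, beside 9.38 to 10.78 on the other 4, and the fibroblast mean was 11.32 and 11.13, beside 11.69 to 12.32. In the iMet group, array 5 had the highest neutrophil (9.87) and B cell (7.78) means and the highest Ptprc, Cd52 and Clec7a. Most of these leukocyte means rest largely on dim genes. Between the tumours, 1 of 12 T and NK cell and 4 of 10 dendritic and Langerhans cell markers passed the dim filter. So did 3 of 9 neutrophil and 2 of 7 B cell markers, and 0 markers of these 4 lists were called. The part of these cell types in the differences was not tested.

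**Figure D4:**
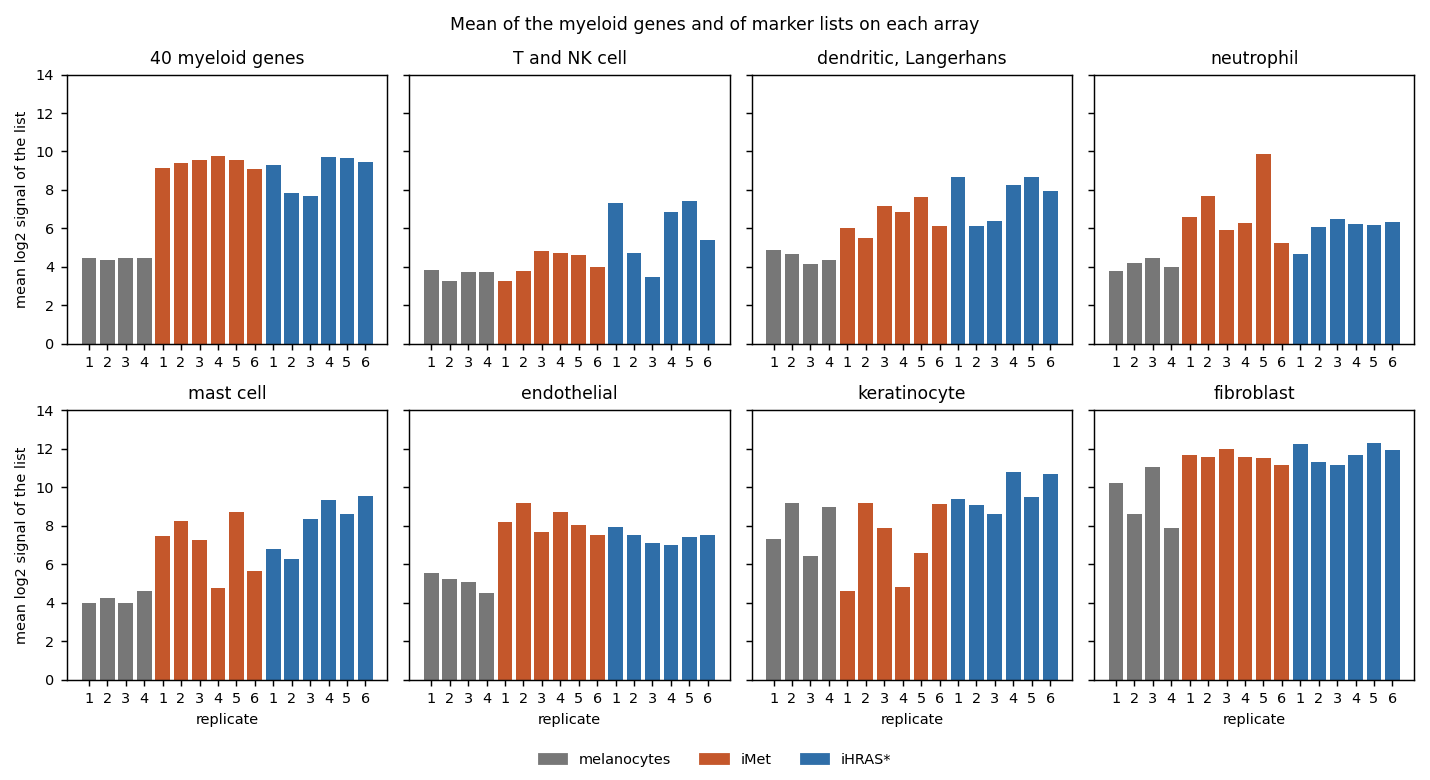
Mean log2 signal (vertical axis, from 0) of the 40 myeloid genes and of 7 marker lists on each array, coloured by group. The myeloid, T and NK cell and dendritic means are lower on iHRAS* arrays 2 and 3 (7.82 and 7.66 for the myeloid genes) than on the other iHRAS* arrays, while the mast cell mean is not low on array 3.

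The genes whose signal varied most like the mean of the set were sought over the 12 tumour arrays after subtracting group means. The 12 most alike were Arrb2, C1qb, Fermt3, Il10ra, Csf1r, C1qc, Was, Smap2, Ifi30, Rassf5, Ms4a6b and Inpp5d, with Pearson correlations of 0.96 to 0.98. Over the 10 arrays without iHRAS* arrays 2 and 3 the same correlations were 0.57 to 0.87. These values describe the arrays, which share the low pair. Among the set itself, Tyrobp (0.99), Spi1 (0.98) and Fcgr3 (0.98) followed the mean of the others most closely, whereas the correlation was -0.41 for Cd163 and -0.35 for Lgals3. Without iHRAS* arrays 2 and 3 these values were 0.85, 0.86 and 0.91 for Tyrobp, Spi1 and Fcgr3, -0.20 for Cd163 and 0.12 for Lgals3, which changed sign.

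Other genes of the myeloid system came from 5 lists. Of 13 tested colony stimulating factors, their receptors and myeloid transcription factors, 1 was higher and 1 was lower in iMet tumours. Of all tested genes, 11.2% were higher and 9.7% were lower, so these counts do not set the list apart. Csf1, the growth factor for macrophages, read 8.73 to 10.58 in iMet and 7.39 to 9.05 in iHRAS* tumours and rose by 1.44 ± 0.37 (SE, adjusted p = 0.016). It averaged 10.62 ± 0.69 (SD, n = 4) on the melanocyte arrays, and its call between the models was lost without iHRAS* arrays 2 and 3 (adjusted p = 0.0594). Bach1, a haem-responsive repressor, differed by -0.49 ± 0.15 (adjusted p = 0.0424), and this call ended when iMet array 1, 3, 4, 5 or 6, or iHRAS* array 1, 4, 5 or 6, was omitted singly, and under the deposited scaling (-0.24, adjusted p = 0.383). Runx1 and Irf8, a pair of transcription factors of blood cells, differed by 1.09 and -0.63 and were not called.

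Of 20 tested signalling genes below Fc receptors and integrins, 1 was higher and 2 were lower, beside 11.2% and 9.7% of all tested genes. This list did not stand out from the background either. Dok3, an inhibitory adaptor, read 7.26 to 7.56 in iMet and 5.99 to 6.95 in iHRAS* tumours, without overlap (0.81 ± 0.17, SE, adjusted p = 0.00652, limma). Fyb, an adaptor that links receptors to integrin activation, fell in iMet tumours by 1.13 ± 0.26 (adjusted p = 0.00969), and its ranges did not overlap either. The kinase Syk differed by 0.41 ± 0.18 and was not called.

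Of 26 other myeloid receptors tested, 9 were higher in iMet tumours and 0 were lower, beside the background of 11.2% higher and 9.7% lower. Lyve1, a hyaluronan receptor of lymphatic endothelium and of some tissue macrophages, read 8.65, 9.91, 8.72, 8.20, 8.09 and 8.42 on the iMet arrays and 7.31, 7.25, 6.44, 7.53, 6.86 and 6.95 on the iHRAS* arrays. The groups did not overlap, and the difference was 1.61 ± 0.29 (SE, adjusted p = 0.00266, limma). Endothelial marker genes were also higher in iMet tumours, 8 of 11, and their part in the Lyve1 difference was not tested. Folr2, a folate receptor of tissue macrophages, rose by 0.94 ± 0.25, and the Toll-like receptor genes Tlr4 and Tlr7 rose by 0.75 ± 0.21 and 1.33 ± 0.38. The calls of Tlr4 and Tlr7 were lost without iMet array 2 and iMet array 3, respectively, and Tlr4 was not called in a fit of all 16 arrays (adjusted p = 0.307). Without iHRAS* arrays 2 and 3 the differences were 0.46 for Tlr4 and 0.81 for Tlr7, both still called (adjusted p = 0.0415 and 0.0463). The Folr2 call was lost in that fit (0.79, adjusted p = 0.0639).

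Of 21 tested myeloid products and activation genes, 3 were higher and 1 was lower in iMet tumours, beside 11.2% and 9.7% of all tested genes. These counts do not set the list apart from the background. Ccl2, a chemokine that attracts monocytes, read 10.92, 11.14, 10.62, 9.90, 10.67 and 9.74 on the iMet arrays and 7.52, 8.50, 8.55, 10.21, 9.28 and 8.92 on the iHRAS* arrays (1.67 ± 0.39, SE, adjusted p = 0.0108, limma). Only iHRAS* array 4 reached into the iMet range, and in a fit of all 16 arrays the adjusted p was 0.0702. Il1rn, the interleukin-1 receptor antagonist, fell in iMet tumours by 1.13 ± 0.27 (adjusted p = 0.0116), with no overlap. The chemokine genes Ccl6 and Pf4 rose by 1.57 ± 0.45 and 1.20 ± 0.34 (adjusted p = 0.0268 for both). The Ccl6 call ended when iMet array 1, 2, 3 or 5, or iHRAS* array 1, 4 or 6, was omitted singly, and the Pf4 call without iMet array 3, iHRAS* array 1 or iHRAS* array 4. The Pf4 call was also lost without iHRAS* arrays 2 and 3 together (1.25, adjusted p = 0.0543).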

How the data were processed

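The authors deposited 1 table of log2 expression values for 16 Affymetrix mouse 430A 2.0 arrays (22690 probe sets). The probe summary and its scaling are not given in the sources used here. The deposited medians spread by 0.72, above the limit of 0.3, so values were quantile-normalized after leaving out 64 control probe sets. Genes were named from the platform annotation: 20380 probe sets had 1 symbol, 691 several and 1555 none. The highest mean chose among probe sets of a gene. Genes above the 40th percentile (log2 6.21) on 6 tumour arrays, or on 4 of all 16 arrays for comparisons with melanocytes, were tested with limma 3.58.1 (R 4.3.3), which was tested on simulated data. The models were compared over the 12 tumour arrays. Samples were grouped by title, and p-values were adjusted by Benjamini-Hochberg over all genes tested. The number of arrays limits precision. Every gene of the set was named, and from each of 5 pathway lists the 4 with the smallest p between the tumours, plus any called against its list's majority. The result for 1 signalling gene is not reported here. The genes and lists were chosen with earlier results of these data known. Alternatives were the scaling, filter, probe set rule, samples fitted, block and arrays left out.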

Additional observations from a re-analysis of the deposited data

Results flagged for a closer look

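In 6 of the 120 groups of arrays examined (40 genes in 3 groups), 1 array stood far from the others, and chance alone gives about 1 group in 20. Trem2 was 2.40 on iHRAS* array 2, beside 6.01 to 7.62 on the other 5. Itgam was 5.70 on iHRAS* array 1, beside 6.82 to 7.45. On iMet array 5, Cd52 was 10.75 (others 8.40 to 8.76) and Clec7a was 7.95 (others 6.29 to 6.60). On melanocyte array 2, both values were dim: Trem2 was 2.93 (others 2.47 to 2.55) and Clec4n was 4.78 (others 5.12 to 5.14).

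The increase over melanocytes differed between the tumour models for 4 genes, by the limma test of iMet against iHRAS*. Melanocyte values cancel in that test, so these are the 4 calls already given and not further results. Their number does not exceed the background share of 11.2%. The increase was larger in iMet tumours by 1.47 for Itgam, 1.21 for Msr1, 1.01 for Mrc1 and 0.96 for Ms4a6d.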

How the results depend on the processing

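The counts against melanocytes moved little, to 37 to 39 higher in either model. Without the dim filter 1 gene, Marco, was lower in iHRAS* tumours than in melanocytes. Between the models, the main fit gave 4 higher and 0 lower. Leaving out 1 array at a time gave 2 to 4 higher and 0 to 1 lower. Leaving out iHRAS* arrays 2 and 3, added after seeing the data, gave 2 higher and 3 lower, and Ptprc turned to -0.88. Most genes of the set were lowest on that pair, so this shift was favoured in advance. Itgam and Msr1 were called under all 21 alternatives, Mrc1 under 9 and Ms4a6d under 8. Bach1 turned to 0.14 with the mean of probe sets, and the cause was not tested. Same-numbered iMet and iHRAS* arrays did not deviate together (correlations of -0.23 to 0.14, with 2 of 6 best with their own number). These values gave no sign of pairing by number but cannot exclude it. With the replicate block, 2 genes were higher in iMet and 0 were lower. Dim melanocyte signals limit differences to bounds.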
